A study of Sus scrofa with 12 samples.

Results

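The comparison described here is that of porcine (Sus scrofa) embryos injected with short interfering RNA against CCNB2 (si-2c, 3 libraries) and control embryos (con-2c, 3 libraries), which are 6 of the 12 libraries of the series and were chosen by their titles. The question is which genes differ when CCNB2 is depleted, what those genes do and how abundant their transcripts are. Embryos were made by in vitro fertilisation, and each library was prepared from a pool of embryos by SMART-seq, which copies polyadenylated RNA with an oligo(dT) primer, adds a template switch and amplifies the cDNA by PCR. The other 6 libraries, titled con-4c and si-4c, entered the same model to estimate the spread between libraries.

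The 6 libraries share the species and the embryo culture and differ in the treatment field, si-CCNB2 in si-2c and a blank control in con-2c. The methods name the control of these libraries both normal embryos and the NC group of Si-CCNB2, and they describe a negative control prepared for injection beside the siRNA at matched volumes. With the label blank control, whether con-2c embryos were injected is not clear, and if they were not, the siRNA and the injection cannot be told apart. The titles read 2c, but the tissue field of all 6 libraries reads 4-cell embryo, and title and tissue field disagree in all 12 libraries. The names con-2c and si-2c stand for the titles only, and whether both groups had reached the same stage was not tested. Replicates are separate sets of equally many embryos, with no word on whether they came from separate fertilisations, so p-values measure the spread between these pools.

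Cyclin B2, the product of CCNB2, binds the kinase CDK1 and drives entry into mitosis together with cyclin B1. The fertilised egg starts without transcription and lives on maternal mRNA, which is cleared by shortening of its poly(A) tails while the zygotic genome is switched on during early cleavage. BTG4 brings the CCR4-NOT deadenylase to maternal mRNA, and EIF1A and DPPA2 are genes whose transcription is used to mark zygotic genome activation.

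The siRNAs designed against CCNB2 are shown because they define the treatment of si-2c. Which of them was injected, or whether both were, was not stated.
Si-CCNB2-1: gcagguccacuccaaguuu
The other siRNA shares a stretch of bases with a primer for CCNB2.
Si-CCNB2-2: GCUUAUACCAGuucccaaa
Each is 19 bases long. The capitals mark the 11 bases of Si-CCNB2-2 that are also the 3′ end of the forward primer of the CCNB2 quantitative PCR, and Si-CCNB2-1 shares no such end. That primer is aucacagacaacGCUUAUACCAG, here in RNA letters with the shared bases in capitals.

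CCNB2 (ENSSSCG00000004588; Sscrofa11.1 in RefSeq, chromosome 1, 112907047 to 112942218) was the targeted gene and was low in every si-2c library. Its level, in CPM (counts of the gene as a share of the library total, scaled by TMM factors), was 463, 487 and 444 in con-2c and 17.8, 28.8 and 21.6 in si-2c. The ranges lie far apart, and the mean fell from 464 ± 21.7 to 22.7 ± 5.58 CPM (SD, n = 3 each). The log2 fold change was -4.36 ± 0.15 (SE), with an adjusted p of 1.53e-12 in edgeR's quasi-likelihood test, and no gene with a mean of at least 1 CPM was called lower by more. CCNB2 was also low under the other title, at 475 CPM in con-4c and 42.6 CPM in si-4c.

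The library totals were between 33833611 and 39510908 counts in con-2c and between 33270517 and 38649571 in si-2c, which overlap. Thinned to the smallest total, 18375 ± 373 genes had a count in con-2c and 22552 ± 561 in si-2c (SD, n = 3 each). The groups did not overlap, and the exact permutation test gave a two-sided p of 0.1, the smallest that 3 against 3 libraries allow. Oocyte and early embryo transcripts were present in all 6 libraries, among them the subcortical maternal complex gene OOEP and the zona pellucida gene ZP4. Of 14 cumulus and granulosa cell markers in the table, CYP11A1, FOXL2 and the row named HAS2 had no count in any of the 6 libraries. A row outside the list named SHAS2, for which RefSeq gives Has2 as a synonym and which was looked up after the values were seen, had none in con-2c and 0.390, 0.321 and 0.279 CPM in si-2c and was called higher. The list summed to between 331 and 406 CPM in con-2c and between 201 and 228 CPM in si-2c. VCAN held most of that sum, at 334 ± 40.2 CPM in con-2c and 184 ± 14.2 CPM in si-2c. Among all tested genes 10.7% were higher and 1.8% lower. Of the list's 9 tested markers, PTX3 and GJA1 were higher (22.2%) and none lower, both with no count in con-2c and means of 0.604 and 0.279 CPM in si-2c. The 11 sperm markers summed to between 70.7 and 74.0 CPM in con-2c and between 55.5 and 63.4 CPM in si-2c, and of 7 tested AKAP4 and AKAP3 were higher (28.6%), with no count in con-2c and at most 1.16 CPM in si-2c, and SPACA3 was lower (14.3%). The part of these other cell types in the results was not tested.

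Compared with con-2c, 1918 genes were higher and 324 lower in si-2c among 17995 genes tested. Calls required an adjusted p under 0.05 together with a log2 fold change of 1 or more in either direction. These are 10.7% and 1.8% of the genes tested, 12.5% together, so 85.5% of the calls were higher. No con-2c value fell within the si-2c values in 2171 of 2242 called genes, and the same held for 41.7% of the genes tested. The sizes differed too, with a median log2 fold change of 3.94 over the genes called higher and -1.19 over those called lower. By mean CPM over the 6 libraries, the median of the higher genes was 6.20 under 1 CPM, 2.40 from 1 to 10, 1.93 from 10 to 100 and 4.11 from 100 to 1000 CPM. That of the lower genes was -4.86 under 1 CPM and -1.15 to -1.22 in the other classes. Of the higher genes 598 had no count in con-2c, so their log2 fold changes are not measured ratios. A log2 fold change of at least 3 was seen in 1211 of the genes called higher, whereas 11 of those called lower reached -3 and 10 of these had a mean under 1 CPM. The lower genes carried a symbol in 80.9% of cases and the higher genes in 48.6%, against 67.0% of all genes tested, so functions can be given for fewer than 1 in 2 of the higher genes. The gene lists below hold only genes with a symbol. Of 12052 such genes tested, 932 were higher, a smaller share than 10.7%, and 262 lower, a larger share than 1.8%.

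**Figure D1:**
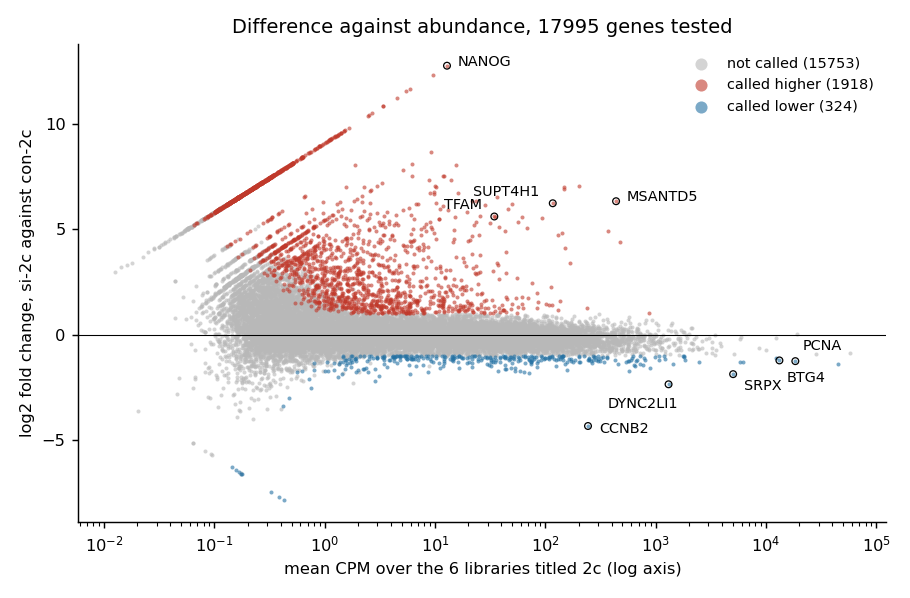
Each point is a tested gene, placed by its mean CPM over the 6 libraries (horizontal, log axis) and its log2 fold change of si-2c against con-2c (vertical), with the genes called higher in red, those called lower in blue and the others in grey. The 1918 higher genes spread upward on the left, and the 324 lower genes form a band near -1.19 that reaches the right end, with CCNB2 below it at -4.36. The straight lines at the upper left are genes with no or few counts in con-2c, and the blue points at the lower left are genes with no or few counts in si-2c.

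The genes called higher were rare transcripts and the genes called lower reached the most abundant ones. Classes of abundance were formed from the mean CPM over the 6 libraries; because CPM is not divided by transcript length, a class ranks genes by their share of reads and not by molecules. Under 1 CPM, 987 of 6543 genes were higher (15.1%) and 16 lower (0.245%). From 1 to 10 CPM the numbers were 725 (13.4%) and 103 (1.91%) of 5403 genes, and from 10 to 100 CPM they were 187 (4.19%) and 115 (2.57%) of 4467 genes. With library totals, given below, the order turned only at 1000 CPM and over, and with TMM scaling it turned in both upper classes. From 100 to 1000 CPM, 19 of 1472 genes were higher (1.29%) and 72 lower (4.89%), and at 1000 CPM and over, 0 of 110 were higher and 18 lower (16.4%). With classes formed over all 12 libraries, 1 gene of at least 1000 CPM was higher and 18 were lower.

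The medians of whole classes, called genes included, ran the same way. The median log2 fold change of all tested genes fell from class to class, 0.85 under 1 CPM, 0.08 from 1 to 10 CPM, -0.06 from 10 to 100 CPM, -0.19 from 100 to 1000 CPM and -0.44 at 1000 CPM and over. Rare genes were tested only where a group held enough counts, so these medians describe the classes and are not separate support for the calls. In con-2c, 1476 of the higher genes (77%) had a mean under 1 CPM, and in si-2c 715 still did. The middle 50% of the higher genes lay between 0 and 0.849 CPM in con-2c and between 0.621 and 5.18 CPM in si-2c, so most stayed below 10 CPM in si-2c.

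The genes called higher held 0.335% ± 0.0249 of all counts in con-2c and 2.29% ± 0.0223 in si-2c (SD, n = 3 each). The 324 genes called lower held 19.1% ± 1.10 and 10.2% ± 0.482. Neither share overlapped between the groups, but the genes were chosen on these libraries and the shares describe them without a test. The 50 most abundant genes of each library, which no call or scaling enters, held 38.9% ± 1.93 of its counts in con-2c and 29.6% ± 2.03 in si-2c (exact permutation p = 0.1, two-sided, the smallest possible). The genes at 1000 CPM and over, set in each library on the TMM-scaled CPM, numbered 110 to 137 in con-2c and 83 to 96 in si-2c, and held 48.5% ± 3.45 and 35.5% ± 2.86 of the counts. In pools of whole embryos, fewer cells of a kind and less RNA per cell cannot be told apart, and a share of counts can fall because others rise.

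**Figure D2:**
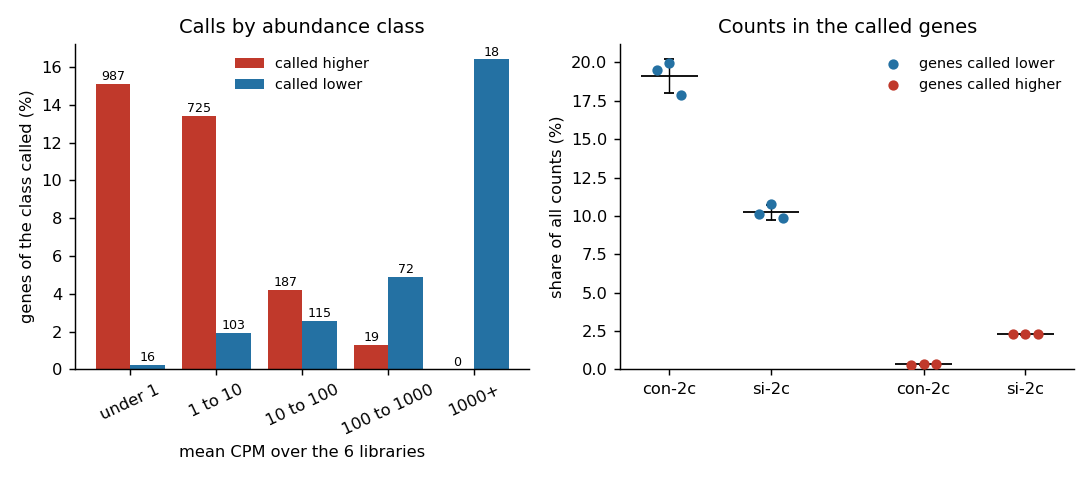
Left, the percentage of the tested genes in each class of mean CPM that were called higher (red) or lower (blue), with the number of genes above each bar; right, the percentage of all counts of a library that fell in the called genes, with a point per library and the mean and SD of 3 libraries. The higher calls shrink from 15.1% to 0% with abundance while the lower calls grow from 0.245% to 16.4%.

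How far the abundant genes fell depends on the scaling. TMM factors were between 0.852 and 0.962 in con-2c and between 1.12 and 1.21 in si-2c. With plain library totals the median log2 fold change of all tested genes moved from 0.12 to 0.52, and the calls became 3028 higher and 58 lower (98.1% higher). All 1918 higher genes stayed called. From 10 to 100 CPM 405 genes were then higher and 17 lower, from 100 to 1000 CPM 45 and 10, and at 1000 CPM and over 0 and 3. All 324 lower genes kept a negative log2 fold change and 269 an adjusted p below 0.05, but 58 still reached a log2 fold change of -1, among them 9 of 16 under 1 CPM, 19 of 103 from 1 to 10, 17 of 115 from 10 to 100, 10 of 72 from 100 to 1000 and 3 of 18 at 1000 CPM and over. Of the lower genes named below, CCNB2, DYNC2LI1, RGS2, OOEP, SEPTIN10, PSMB1, SRPX, MRPS31, MOCS2, DERA, AFG3L2, ADAT2, MAGOH, COX17 and those with no count in si-2c kept the call with library totals. Medians of gene groups are therefore given as log2 differences from the median of all tested genes, and these moved little between the scalings.

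Among the most abundant lower genes, BTG4 (ENSSSCG00000015020; Sscrofa11.1, chromosome 9, 39253116 to 39281327), the adaptor of maternal mRNA deadenylation, stood at 20183, 20098 and 15431 CPM in con-2c and 7835, 8874 and 6982 CPM in si-2c. The ranges did not overlap, and the log2 fold change was -1.23 ± 0.11 (adjusted p = 1.99e-07), or -0.83 with library totals. PCNA, the sliding clamp of DNA replication, was at 29513, 27646 and 21057 CPM in con-2c and 9677, 11314 and 11501 CPM in si-2c, a log2 fold change of -1.27. UBB, a polyubiquitin gene, had a mean of 16707 ± 2212 CPM in con-2c and 7699 ± 1894 CPM in si-2c, and without si-2c replicate 3 its log2 fold change was -0.95. SRPX, a gene of a sushi-repeat protein, went from 7929 ± 739 to 2144 ± 319 CPM, and DYNC2LI1, a light intermediate chain of the dynein of cilia, from 2193 ± 318 to 424 ± 67.6 CPM. ACCSL and the linker histone gene of the oocyte, H1-8, belonged to the same class, at 8303 ± 758 against 3372 ± 17.5 CPM and 3539 ± 90.0 against 1448 ± 384 CPM, as did YPEL5 at 2582 ± 366 against 1116 ± 80.0 CPM.

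The lower genes of middle abundance named next, with a mean from 10 to 1000 CPM over the 6 libraries, had log2 fold changes between -1.72 and -1.20. CCNB2 lies in the same range of abundance and fell by more. RGS2, a regulator of G protein signalling that also limits translation, was at 717, 673 and 614 CPM in con-2c and 243, 248 and 260 CPM in si-2c. SEPTIN10, a cytoskeletal GTPase, was at 97.2, 83.7 and 90.8 CPM in con-2c and 30.2, 27.2 and 25.3 CPM in si-2c. In both the groups were well separated, with log2 fold changes of -1.42 ± 0.07 and -1.72 ± 0.09. The proteasome gene PSMB1 (-1.70), the mitochondrial ribosomal gene MRPS31 (-1.49), DEPDC7 (-1.28), the molybdenum cofactor gene MOCS2 (-1.58), the PARP cofactor gene HPF1 (-1.20) and the RNase P gene RPP21 (-1.35) were also among the 12 lower genes with the smallest p, as was OOEP. In the class from 1 to 10 CPM the smallest p belonged to DERA, an aldolase of deoxyribose phosphate, at 9.35 ± 0.607 against 2.57 ± 0.547 CPM, and AFG3L2, a mitochondrial protease, at 10.03 ± 1.55 against 3.54 ± 0.363 CPM. Under 1 CPM they belonged to ADAT2, a tRNA deaminase, at 1.16 ± 0.296 against 0.270 ± 0.230 CPM, and to ZNF550. The call of ADAT2 was lost without si-2c replicate 1 (log2 fold change -1.82) and without si-2c replicate 3 (-1.77).

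The higher genes included large changes at every level below 1000 CPM that they reached in si-2c. MSANTD5 (ENSSSCG00000042891), a gene with a domain of the Myb/SANT type, was at 10.6, 13.3 and 8.02 CPM in con-2c and 775, 952 and 866 CPM in si-2c. SLC31A1, the copper importer CTR1, was at 25.2, 33.0 and 27.5 CPM in con-2c and 292, 311 and 314 CPM in si-2c. SUPT4H1, a subunit of the elongation factor DSIF, was at 1.75, 4.72 and 2.55 CPM in con-2c and 235, 265 and 191 CPM in si-2c. In each of these genes the lowest si-2c library was far above the highest con-2c library, and the log2 fold changes were 6.34 ± 0.17, 3.42 ± 0.10 and 6.25 ± 0.23.

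Others among the 12 higher genes with the smallest p act in chromatin, mitochondria, RNA and the cytoskeleton. TFAM, which packages and transcribes mitochondrial DNA, rose from 1.37 ± 0.0625 to 67.6 ± 9.60 CPM, and TDG, a DNA glycosylase of active demethylation, from 0.348 ± 0.0743 to 22.01 ± 0.976 CPM. TMSB10, which binds monomeric actin, rose from 16.4 ± 3.21 to 285 ± 30.5 CPM. FAU, which encodes a ribosomal protein fused to a ubiquitin-like protein, rose from 2.68 ± 1.004 to 110 ± 15.5 CPM. The histone H2B gene HIST1H2BD (log2 fold change 4.71), the ribosome assembly methyltransferase gene EMG1 (3.84), the arginine- and serine-rich gene RSRP1 (3.80) and the histone chaperone gene SPTY2D1 (2.92) completed the list with NANOG. By CPM gained, the histone methyltransferase gene NSD1 (39.0 ± 4.08 to 187 ± 13.1 CPM), RSRC2 (142 ± 2.85 to 339 ± 36.2 CPM) and CKS2, a CDK1-binding subunit (574 ± 43.6 to 1177 ± 81.6 CPM), came beside them. CKS2 was the only higher gene with a mean of at least 1000 CPM in si-2c; its log2 fold change of 1.04 was 0.98 without con-2c replicate 1 and also without si-2c replicate 2. In the class from 1 to 10 CPM the smallest p of genes with a symbol belonged to RPS19 and to MALSU1, a factor of mitochondrial ribosome assembly, at 0.640 ± 0.270 against 18.7 ± 3.77 CPM.

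**Figure D3:**
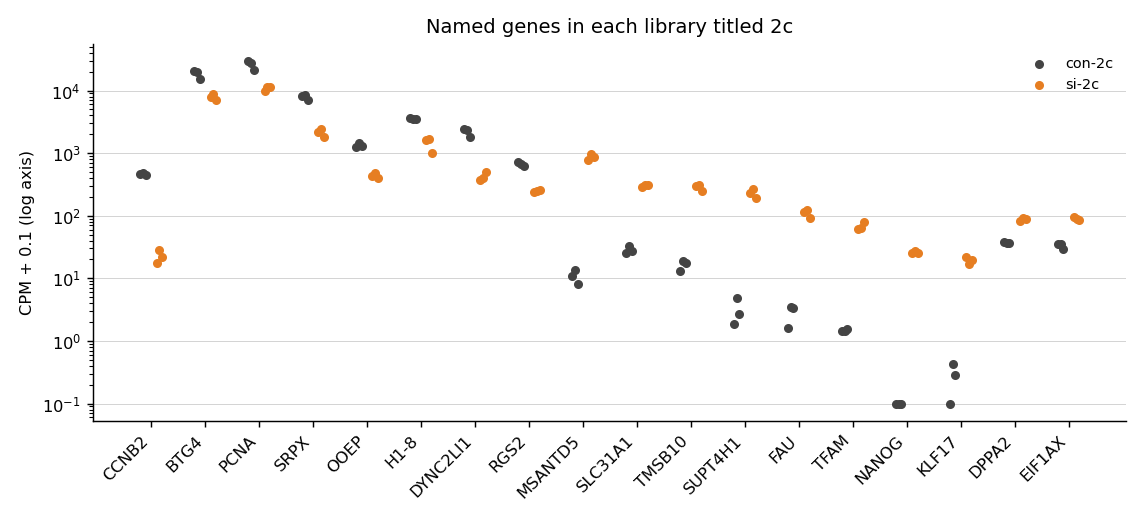
CPM plus 0.1 (vertical, log axis) of 18 named genes in each con-2c library (dark) and each si-2c library (orange), with 1 point per library. The 2 groups are apart in every gene shown, and NANOG sits at the offset of 0.1 in con-2c because no count was found there.

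For 598 of the higher genes, 218 of them with a symbol, no con-2c library held a count. At equal depth more genes had a count in si-2c (22552 ± 561) than in con-2c (18375 ± 373). How many of all tested genes had none in con-2c or in si-2c was not counted. NANOG (ENSSSCG00000040403), a transcription factor of pluripotent cells, had no count in con-2c and 25.4, 26.7 and 24.9 CPM in si-2c, which is at least 835-fold higher when con-2c is set to a floor of 3 counts over its 3 libraries (0.0307 CPM). It had the most CPM of these genes, and among the rest with a symbol were ZNF622 (19.0 ± 1.01 CPM in si-2c, at least 619-fold higher), ANXA1, a phospholipid-binding protein (11.8 ± 2.32 CPM, at least 384-fold), and MYCN (5.36 ± 0.734 CPM, at least 174-fold). Under 1 CPM in mean over the 6 libraries, ADAMTS5, a secreted protease, and ISG20L2, a nucleolar exonuclease, had the smallest p and reached 1.78 ± 0.395 and 1.22 ± 0.283 CPM in si-2c.

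The reverse case was rare and weak. In 8 of the lower genes no si-2c library held a count, and none of them exceeded a mean of 0.852 CPM in con-2c. DIO2, a deiodinase, had that mean from con-2c replicate 2 alone (2.56 CPM, against 0 in the other two con-2c libraries), and without that library it had no count in either group. ZNF550 was at 0, 1.40 and 0.922 CPM in con-2c, UPP1 at 0, 0.386 and 0.553 CPM, and MTG1 at 0.446, 0.178 and 0.430 CPM. The con-2c and si-2c libraries of DIO2, ZNF550 and UPP1 thus overlapped at 0. DIO2 and UPP1 were also no longer called without any 1 of the si-2c libraries, UPP1 without con-2c replicate 3, and MTG1 without si-2c replicate 1.

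The list headed transcription factors of zygotic activation and pluripotency had the largest share of higher genes of the lists of at least 10 tested members. Not all of its members are transcription factors. Of 24 tested, 13 were higher (54.2%, against 10.7% of all genes) and none lower, and their median was 1.24 above that of all genes. KLF17 was at 0, 0.327 and 0.184 CPM in con-2c and 22.2, 16.8 and 19.2 CPM in si-2c, and KLF4 rose from 5.46 ± 0.912 to 17.0 ± 3.11 CPM. DPPA2 (Sscrofa11.1, chromosome 13, 150186833 to 150200612) stood at 37.6, 36.2 and 36.6 CPM in con-2c and 81.6, 93.2 and 87.7 CPM in si-2c, a log2 fold change of 1.25 ± 0.12. EIF1AX, counted here for EIF1A, stood at 35.2, 35.4 and 29.0 CPM against 93.9, 89.7 and 84.6 CPM, a log2 fold change of 1.43 ± 0.09. The other higher members were MYC, NR5A2, SOX2, TFAP2C, TBX3, TEAD4 and GATA3, none of them above 5.85 CPM in a library. Members not called included LIN28A (28.2 against 26.1 CPM), GATA4 (13.1 against 13.2 CPM) and KLF3 (24.0 against 26.1 CPM), whose libraries overlapped. In the short list of trophectoderm and blastocyst markers, which shares members with this list, 5 of 12 were higher, and CDH1, its most abundant member, was at 332 ± 13.0 against 255 ± 17.8 CPM.

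Genes of protein synthesis were called in both directions, and their shares are read against the 10.7% higher and 1.8% lower of all genes. Of 63 cytosolic ribosomal proteins, 22 were higher (34.9%) and 3 lower (4.76%), with a median 0.59 above that of all genes. RPS19 was at 0.573, 0.535 and 0.492 CPM in con-2c and 14.1, 14.7 and 14.6 CPM in si-2c, RPS13 rose from 2.64 ± 0.322 to 22.4 ± 2.27 CPM and RPS16 from 6.24 ± 0.471 to 27.8 ± 2.36 CPM. The member with most CPM, RPS24, was lower, at 1496 ± 85.1 against 652 ± 107 CPM, as were RPL37 and RPL22; none of the 3 was called with library totals. Ribosomal protein genes have many processed copies, and how shared reads were counted is not given in the sources used here, so their levels are uncertain. Of 82 genes of ribosome biogenesis, 12 were higher (14.6%) and 3 lower; the nucleolar methyltransferase gene FBL rose from 0.853 ± 0.213 to 12.2 ± 1.43 CPM, and UTP4 was lower at 65.0 ± 5.95 against 28.2 ± 4.20 CPM. Of 42 translation factors, 7 were higher (16.7%) and none lower, with EIF6 at 19.7 ± 2.91 against 68.0 ± 13.3 CPM and the release factor gene ETF1 at 5.53 ± 0.623 against 18.2 ± 3.25 CPM. The most abundant factor, EIF5B, was at 3237 ± 376 against 2915 ± 598 CPM and not called. Of 65 mitochondrial ribosomal proteins, 4 were higher and 4 lower (6.15% each).

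The list with the general transcription factors was called higher at 12.7%, zinc finger genes at 9.32%, RNA polymerase subunits at 3.7% and splicing factors at 21.4%. Of 71 general transcription factors, Mediator subunits and elongation factors, 9 were higher (12.7%, against 10.7% of all genes) and 5 lower (7.04%, against 1.8%), none of the 5 with library totals. Beside SUPT4H1, the higher members included MED31 (4.50 ± 0.263 to 40.01 ± 3.12 CPM) and GTF2F1 (2.69 ± 0.714 to 33.2 ± 4.67 CPM), and the lower ones GTF2B (218 ± 30.5 to 82.7 ± 9.22 CPM). Of 27 RNA polymerase subunits only POLR2B was called, at 6.05 ± 0.934 against 29.2 ± 2.18 CPM. Of 56 splicing factors, 12 were higher (21.4%) and 2 lower, while the list's median was 0.15 below that of all genes, or 0.0861 above it over genes of at least 10 CPM. CLK1, a kinase of splicing factors, rose from 1.24 ± 0.335 to 28.7 ± 6.37 CPM, PRPF19 from 59.6 ± 1.11 to 158 ± 7.01 CPM and the helicase gene DDX39A from 27.3 ± 2.09 to 94.9 ± 11.03 CPM. Zinc finger genes, taken by symbol, were higher in 26 of 279 (9.32%) and lower in 2 (0.717%). Of the 12052 tested genes with a symbol, 932 were higher and 262 lower.

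Lists of chromatin genes had shares near or below those of all genes, except that histones and their chaperones were lower in 6.45%. Of 62 histone modifying enzymes, 8 were higher (12.9%, against 10.7% of all genes) and none lower (against 1.8%). Beside NSD1 these included SETD2 (4.87 ± 0.269 to 20.1 ± 4.39 CPM), KDM4A (3.18 ± 1.04 to 11.3 ± 2.07 CPM) and the Polycomb gene SUZ12 (8.24 ± 1.77 to 18.1 ± 1.93 CPM), which fell just under the threshold without con-2c replicate 3 (log2 fold change 0.999). Of 51 chromatin remodelling genes, 2 were higher (3.92%), one of them the acetyl-lysine reader gene BRD2 at 13.4 ± 1.35 against 29.7 ± 8.59 CPM (log2 fold change 0.90 without si-2c replicate 1, under the threshold); this list's median was 0.28 above that of all genes, and 12 were called higher with library totals. Of 31 histones and histone chaperones, none was higher and 2 were lower, H1-8 and ASF1B (262 ± 32.9 against 111 ± 7.54 CPM), and neither was called with library totals. HIST1H2BD is not a member of that list. Of 19 genes of DNA methylation, TDG and GADD45B were higher; DNMT1, the maintenance methyltransferase and the most abundant member, was at 79439, 80948 and 63358 CPM in con-2c and 40317, 44082 and 36195 CPM in si-2c, a log2 fold change of -0.89 that stayed under the fold threshold.

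Of 32 genes typical of the oocyte, 5 were lower (15.6%, against 1.8% of all genes) and none was higher (against 10.7%), and their median was 0.43 below that of all genes. OOEP was at 1263, 1435 and 1317 CPM in con-2c and 436, 487 and 397 CPM in si-2c, a log2 fold change of -1.61 ± 0.08. ZP4 was at 1124 ± 184 against 482 ± 62.9 CPM, and RGS2, H1-8 and OOSP2 were the other lower members. DPPA5, the most abundant, was at 4594 ± 503 against 2310 ± 341 CPM, a log2 fold change of -0.99, and was called without con-2c replicate 3 (-1.08), si-2c replicate 1 (-1.0003) or si-2c replicate 2 (-1.10). With library totals 2 of the 5 stayed called. Of 28 genes of maternal mRNA storage, 1 was higher (3.57%) and none lower, and IGF2BP3, which binds stored mRNA, was at 409 ± 12.4 against 396 ± 10.9 CPM with overlapping libraries.

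The machinery of mRNA decay was called higher at shares near the 10.7% of all genes and lower at 6.9% (deadenylation) and 2.44% (decapping, exosome and surveillance), against 1.8%. Of 29 genes of deadenylation, BTG3 (0.441 ± 0.250 to 14.4 ± 1.45 CPM), the CCR4-NOT subunit gene CNOT9 (4.20 ± 0.464 to 15.4 ± 3.35 CPM), the poly(A)-binding protein gene PABPC1 (1.18 ± 0.860 to 11.3 ± 0.390 CPM) and BTG1 were higher (13.8%), and BTG4 and PABPN1L were lower, BTG4 not with library totals. Of 41 genes of decapping, the exosome and mRNA surveillance, 4 were higher (9.76%), all of them exosome genes: EXOSC10 (4.47 ± 0.874 to 42.6 ± 3.31 CPM), EXOSC1 (31.8 ± 1.88 to 108 ± 5.83 CPM), DIS3 and EXOSC3. DIS3 sat on the fold threshold, with a log2 fold change of 1.0003 that fell under 1 in 9 of the 12 settings with 1 library left out, at 0.979 to 0.999. MAGOH, of the exon junction complex, was lower at 1056 ± 114 against 398 ± 34.2 CPM, and SMG1, the most abundant member, was at 1476 ± 97.8 against 1568 ± 53 CPM and not called.

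Cell cycle genes were called higher at up to 7.89% and lower at up to 9.30%, against 10.7% and 1.8% of all genes. Among the 12052 tested genes with a symbol, 932 were higher and 262 lower, so the shares of higher genes are not read as low. Of 40 genes of mitotic cyclins and CDK1 control, CCNB2, the spindle checkpoint gene MAD2L1 (768 ± 153 against 307 ± 44.0 CPM) and ANAPC10 (23.0 ± 1.29 against 9.29 ± 0.361 CPM) were lower (7.5%), and CKS2, CDC23 and WEE1 were higher (7.5%), with a median 0.41 below that of all genes. With library totals CCNB2 was the only lower member. Of 28 genes of the G1 and S phases, 2 were higher and none lower. Of 43 DNA replication genes, PCNA, TYMS (228 ± 24.3 against 100 ± 6.76 CPM), POLE2 and ORC5 were lower (9.30%) and none higher, and none of these 4 was called with library totals. POLE2 missed the fold threshold without si-2c replicate 1 (log2 fold change -0.949), and ORC5 without that library (-0.950) or con-2c replicate 1 (-0.984). Of 38 genes of the spindle, 3 were higher, among them TUBB (21.7 ± 3.53 to 48.0 ± 6.26 CPM), and 3 lower, among them PRC1 of the central spindle (836 ± 47.6 to 366 ± 17.3 CPM) and DYNC2LI1.

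The lists of oxidative phosphorylation, proteasome and ubiquitin pathway genes had higher shares of lower genes than the 1.8% of all genes, and smaller shares of higher genes than 10.7%. Calls varied with abundance too, with 4.19% higher and 2.57% lower from 10 to 100 CPM and 1.29% and 4.89% from 100 to 1000 CPM. No list here or above was set against genes of like abundance, so the part of abundance in these shares was not tested. Of 69 nuclear genes of oxidative phosphorylation, 9 were lower (13.0%) and 3 higher (4.35%), with a median 0.53 below that of all genes. UQCRB of complex III was at 43.2 ± 3.58 against 16.5 ± 0.946 CPM and SDHB of complex II at 840 ± 63.9 against 414 ± 36.4 CPM, while NDUFA2 of complex I rose from 6.17 ± 1.42 to 66.3 ± 8.08 CPM. None of the 9 was called with library totals, and SDHB and COX7C each missed the fold threshold without con-2c replicate 2 or without si-2c replicate 3. Of 45 proteasome genes, 4 were lower (8.89%), with PSMB1 at 235, 258 and 231 CPM in con-2c and 75.2, 80.0 and 67.3 CPM in si-2c; of 43 ubiquitin pathway genes, 3 were lower (6.98%), UBB and SUMO2 among them, which both missed the fold threshold without si-2c replicate 3 (log2 fold change -0.951 and -0.926). Of 31 genes of mitochondrial DNA maintenance and import, 7 were higher (22.6%), TFAM, TOMM20, TIMM10, TIMM8A, TFB2M, TWNK and TIMM17A, and POLG2 and TEFM were lower, POLG2 not without con-2c replicate 2 (log2 fold change -0.945).

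Lists of stress, cell death and membrane genes are read against the 10.7% higher and 1.8% lower among all genes. In the list of endoplasmic reticulum and integrated stress genes 5 of 37 were higher (13.5%), in that of p53 targets 4 of 32 (12.5%) with CCNG2 at 0.831 ± 0.521 against 14.97 ± 3.39 CPM, and no member of either was lower. Among 39 heat shock genes and chaperones 3 were higher and 3 lower, the latter including HSPE1 (2454 ± 221 against 1188 ± 113 CPM), which missed the fold threshold without con-2c replicate 2 (log2 fold change -0.988) and without si-2c replicate 3 (-0.976). Of 23 genes of the BCL2 family and caspases, 4 were higher (17.4%), among them MCL1 (1.46 ± 0.717 to 11.2 ± 1.81 CPM), and 2 were lower (8.7%), neither of them with library totals. Of 22 interferon and RNA sensing genes, TLR3 and OAS1 were higher and none was lower. Of 59 actin genes 3 were higher, with the tropomyosin gene TPM3 at 0.617 ± 0.408 against 29.8 ± 2.37 CPM. Of 55 nuclear transport genes 4 were higher, with the mRNA exporter gene NXF1 at 4.75 ± 0.871 against 24.1 ± 1.63 CPM, and NUP37 was lower at 362 ± 61.6 against 152 ± 27.7 CPM. Solute carriers were higher in 18 of 247 (7.29%) and lower in 3 (1.21%). In copper and iron handling SLC31A1 was 1 of 3 higher genes of 24, and the copper chaperone gene COX17 was lower at 11.3 ± 2.03 against 4.19 ± 0.734 CPM. Of 24 small RNA genes, MAEL (104 ± 12.3 against 43.3 ± 3.85 CPM) and PRKRA were lower, and of 43 genes of glycolysis and the citrate cycle 4 were higher and 2 lower. Of 35 lipid genes 2 were higher, with FABP5 at 4.32 ± 0.254 against 17.4 ± 1.13 CPM.

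**Figure D4:**
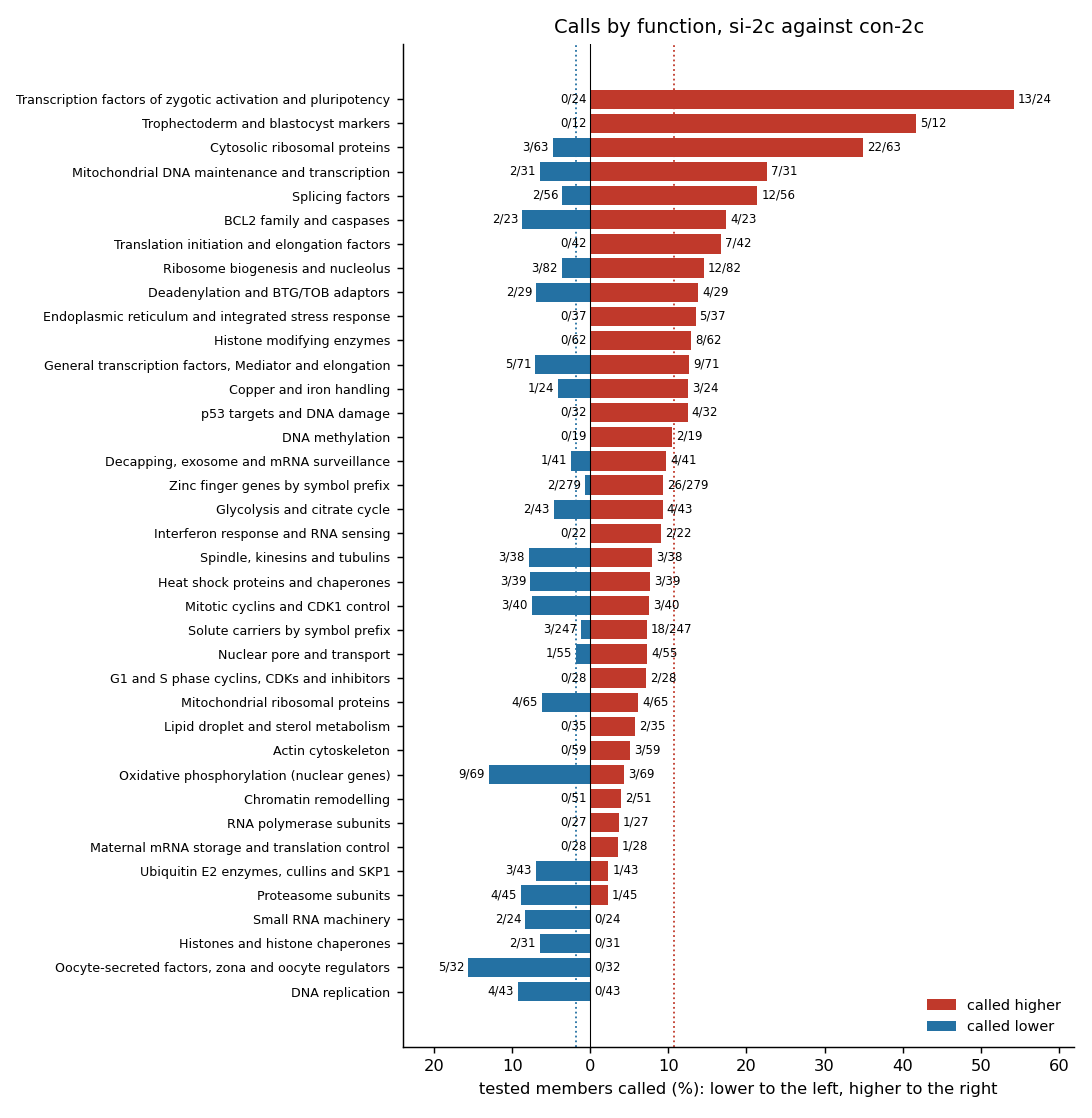
For each gene list with at least 10 tested members, the percentage of tested members called higher (red, to the right) and lower (blue, to the left), with counts beside the bars; dotted lines mark the 10.7% and 1.8% of all tested genes. The list headed transcription factors of zygotic activation and pluripotency leads at 54.2% higher, and oocyte genes lead on the left at 15.6% lower.

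The called genes also differed in the length of their loci. Over genes with a symbol that matched a RefSeq gene of Sscrofa11.1 (861 higher, 238 lower and 11239 of all tested), the median genomic span was 19.1 kb for higher genes and 20.4 kb for lower genes, against 33.2 kb for all tested genes. Within the class from 10 to 100 CPM the medians were 16.5, 22 and 43.8 kb, and from 1 to 10 CPM they were 17.9, 16 and 29.2 kb. Under 1 CPM higher genes did not stand out, at 22.2 kb against 20.3 kb for all. These spans include introns and are given as a description without a test.

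The libraries titled 4c give the levels of the same genes in 6 libraries that did not enter the contrast, though they share the dispersion estimate. The median of the 1918 higher genes was 0.122 CPM in con-2c, 1.65 in si-2c, 2.30 in con-4c and 0.139 in si-4c. The median of the 324 lower genes was 37.3 CPM in con-2c, 16.4 in si-2c, 16.6 in con-4c and 35.7 in si-4c. The si-2c libraries thus lay near con-4c, and con-2c near si-4c, in both sets of genes. Under the 4c titles 1585 of the 1918 higher genes were called lower in si-4c and none higher, where 15.8% of all tested genes were lower and 3.12% higher. Of the 324 lower genes, 171 were higher and 3 were lower. By the interaction term of the edgeR model, the difference under the 2c titles was called above that under the 4c titles for 22.5% of all tested genes and below it for 9.87%. CCNB2 was low in both si groups. SEPTIN10 was at 103 CPM in con-4c and 107 CPM in si-4c, with an adjusted p of 0.642 in edgeR's test of that difference. Title and tissue field each give con-2c and si-2c 1 stage, but the fields contradict each other, and whether the libraries of either arm hold the stage of their labels was not tested.

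**Figure D5:**
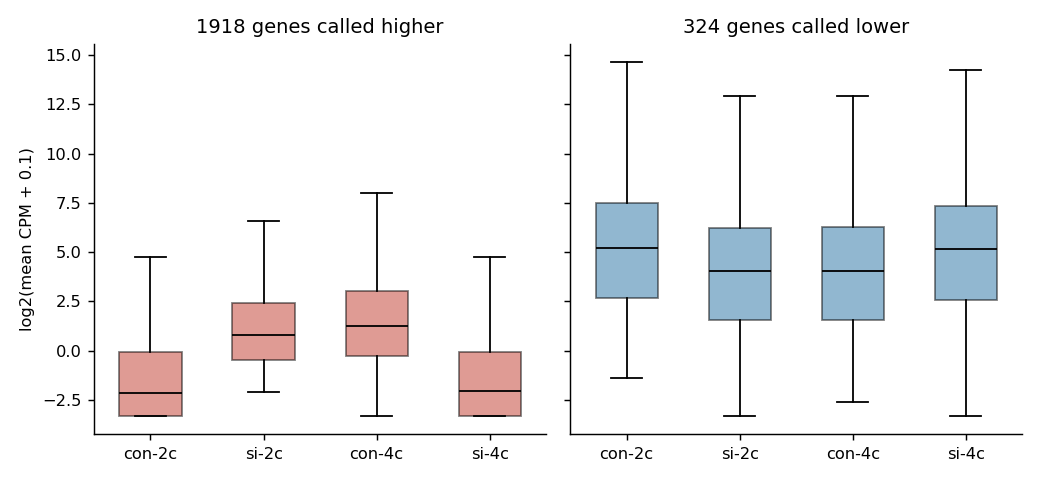
Boxes give log2 of the mean CPM plus 0.1 of the genes called higher (left, red) and lower (right, blue) in the 4 groups; a box holds the middle 50% of genes with the median as a line, whiskers reach the last gene within 1.5 box lengths, and farther genes are not drawn. The higher genes are raised in si-2c and con-4c, and the lower genes in con-2c and si-4c.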

How the data were processed

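SMART-seq libraries of 12 embryo pools were analysed, of which the 6 titled 2c form the comparison. Per the submitters' processing notes, the tools were cutadapt 1.9, HISAT2 2.2.1, StringTie 2.1.6, DESeq2 and edgeR on Sscrofa11.1; strand use, the annotation's release and the handling of shared reads are not given in the sources used here. The authors deposited raw counts per gene for 29329 genes, 15463 with a symbol. Amplified reads carry no molecular identifiers, so totals and floors cover counting error only.

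The test was edgeR 4.0.16 (R 4.3.3) with filterByExpr, TMM scaling, and a quasi-likelihood model of the 4 group means over all 12 libraries (common dispersion 0.0745). Benjamini-Hochberg adjustment covered the 17995 genes tested. Each SE was derived from the fold change and its F statistic. The method was tested on simulated data. Alternatives were DESeq2 1.42.0, library totals, size factors, filters, thresholds, the 6 libraries alone, a replicate block and leaving out each library.

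Named genes were CCNB2, BTG4, EIF1AX and DPPA2; the 12 higher and 12 lower genes with the smallest p, of those whose groups did not overlap and whose higher mean was 10 CPM or more; the 8 with the largest CPM difference each way; up to 4 called members per list with at least 10 CPM plus the most abundant; 2 each way per abundance class; and 5 each way with no count in 1 group. Other list members are named to complete a count. A few genes that these rules pick are not reported here. The comparison, the lists and the rules were chosen with earlier results of these data known. Mitochondrially encoded genes had no row in the table. Counts of replicates differed beyond sampling noise, so none was treated as a copy.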

Additional observations from a re-analysis of the deposited data

Results flagged for a closer look

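The difference between si and con libraries was not the same under the 2c and the 4c titles, by the interaction term of the edgeR model. Of the 1918 genes called higher in si-2c, 1883 had a difference called above that under the 4c titles, and of the 324 called lower, 304 had a difference called below it. Over all 17995 genes tested, 22.5% were called above and 9.87% below (32.4% in either direction), and since the genes were chosen on si-2c and con-2c values that also enter the interaction, the counts among them are a description. Among 27 genes named by the study or by the smallest p, all 27 had an interaction adjusted p below 0.05. CCNB2 had the smallest such value by size, -0.88 on the log2 scale (difference under 2c minus difference under 4c, adjusted p = 7.89e-04), with a negative difference under both titles. The same value was 3.55 for EIF1AX, 3.36 for DPPA2 and -2.59 for BTG4. Among the higher genes it was 17.83 for MSANTD5, 8.98 for SLC31A1, 13.26 for TFAM, 8.62 for RSRP1, 9.44 for TMSB10, 13.09 for FAU, 14.83 for SUPT4H1, 11.55 for HIST1H2BD, 9.13 for EMG1 and 6.84 for SPTY2D1. TDG and NANOG had no count in a whole group, so only the adjusted p of the interaction is given, 1.93e-15 for TDG and 6.91e-15 for NANOG. Among the lower genes the value was -4.54 for DYNC2LI1, -3.23 for RGS2, -3.07 for OOEP, -1.78 for SEPTIN10, -2.77 for PSMB1, -3.95 for SRPX, -2.86 for MRPS31, -2.73 for DEPDC7, -3.55 for MOCS2, -2.44 for HPF1 and -2.06 for RPP21. Groups of 3 libraries were not searched for outlying samples.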

How the results depend on the processing

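CCNB2 was called lower in every alternative. The counts of 1918 higher and 324 lower genes (85.5% higher) stayed within 1.5 times under DESeq2 (2290 and 333, sharing 1898 and 309), DESeq2 size factors (1934 and 305), no filter (2068 and 339) and the 6 libraries alone (1645 and 305). Library totals gave 3028 and 58 (98.1% higher), a mean of at least 10 CPM in either group gave 347 and 144 (70.7%; 6367 genes were tested), no minimum fold gave 2995 and 2218 (57.5%), and an adjusted p below 0.01 with a log2 fold change of at least 2 gave 949 and 3 (99.7%). Leaving out 1 library at a time gave 1588 to 1989 higher and 277 to 357 lower genes, 83.0% to 86.2% higher. A replicate block gave 1689 and 310. Same-numbered con-2c and si-2c libraries did not deviate together (r = -0.07, -0.02 and -0.18 over genes, which are not independent). Deviations from a mean of 3 libraries constrain each other, so these values cannot tell whether the numbers pair the libraries. Of the 160 named genes, 40 were weaker and 1 stronger with library totals. With DESeq2 and with no filter, where 29329 genes entered, all 40 list medians relative to all genes moved, that of splicing factors from -0.148 to -0.281 and -0.277, and that of translation factors from -0.101 to -0.234 and -0.229. With at least 10 CPM, medians relative to all genes turned to 0.0861 for splicing factors, 0.0192 for translation factors, 0.00376 for small RNA genes and -0.540 for cumulus markers. The last was -0.0398 with 6 libraries and between -0.583 (without si-2c replicate 2) and 0.394 when 1 library was left out; the cause was not tested. The calls of DIO2, UPP1, MTG1 and FAM3B, which have no count in si-2c, were lost without 1 or more of the libraries. A gene with no count in con-2c may still be present below 0.0307 CPM, the floor of 3 counts over the group.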
